A study of Homo sapiens with 24 samples.

Results

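The PEA3 factors ETV1, ETV4 and ETV5 are transcription factors of the ETS family, and SPRY1, SPRY2, SPRY4, SPRED1, SPRED2, DUSP4 and DUSP6 encode inhibitors of the RAS to ERK cascade. These 10 genes, of 19775 genes on the array, were followed through 8 groups of prostate cancer cells by every probe set annotated to them alone, 28 of 54675. The members are a named list, drawn up with earlier results of these data known. Gene expression had been measured on 24 Affymetrix HG-U133 Plus 2.0 arrays, 3 described as biological replicates (A, B and C) in each group. The number of arrays limits the precision of every value.

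Both lines are established androgen-dependent prostate cancer lines. VCaP, which carries a TMPRSS2-ERG fusion, was transfected with control siRNA (siControl) or siRNA against ERG (siERG). LNCaP, which carries a rearranged ETV1 gene, received a control (called shControl here, although some labels say siControl) or a short hairpin RNA against ETV1 (shETV1). In all 8 groups RNA interference ran for 24 h and was followed by 2 days without hormone. Cells were then given ethanol (EtOH) or 10 nM of the androgen dihydrotestosterone (DHT) for 16 h. The groups were thus VCaP siControl EtOH, siERG EtOH, siControl DHT and siERG DHT, and LNCaP shControl EtOH, shETV1 EtOH, shControl DHT and shETV1 DHT. Neither ETS factor was removed: the knockdowns are partial, and each line had its own target, reagent type and genetic background.

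Growth factor receptors activate RAS, and the kinase cascade below it ends in ERK, which phosphorylates ETS factors. Among the genes that ERK activity induces are its own brakes. Sprouty (SPRY) and Spred proteins act on RAS and RAF, while the dual-specificity phosphatases DUSP6 and DUSP4 remove phosphate from ERK, mainly in the cytoplasm and the nucleus respectively. The transcripts of the brakes and of ETV4 and ETV5 are therefore widely used as a readout of ERK output. PEA3 genes are held down by the repressor Capicua (CIC), and PEA3 proteins are marked for destruction by the COP1 and DET1 ubiquitin ligase.

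The 250 bases upstream of transcription starts are shown for 4 brakes that moved with DHT in VCaP, because ETS factors, the targets of both knockdowns, bind DNA at short motifs. Of the 10 members, 7 matched the RefSeq promoter table (GRCh38.p14) with 16 starts. Sequences run 5′ to 3′ on the gene's strand and end at the base before the start. Capitals mark matches on either strand to the ETS motif CCGGAAG, the PEA3 motif AGGAAG, the androgen half-site TGTTCT or the Capicua octamers TGAATGAA and TGAATGGA. Where a gene had several starts, the one shown was chosen for its matches.
SPRY4, chr5:142324248-142324497, reverse strand: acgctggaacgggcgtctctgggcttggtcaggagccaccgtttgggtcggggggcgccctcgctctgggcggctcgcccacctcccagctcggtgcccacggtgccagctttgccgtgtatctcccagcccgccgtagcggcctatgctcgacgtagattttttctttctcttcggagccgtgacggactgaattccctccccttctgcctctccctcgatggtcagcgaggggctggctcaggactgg
SPRY1, chr4:123398136-123398385, forward strand: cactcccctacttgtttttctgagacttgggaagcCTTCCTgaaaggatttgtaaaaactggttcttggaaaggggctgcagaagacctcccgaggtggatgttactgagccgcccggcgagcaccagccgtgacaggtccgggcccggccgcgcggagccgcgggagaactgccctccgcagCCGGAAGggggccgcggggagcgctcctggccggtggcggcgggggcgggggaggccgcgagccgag
SPRY2, chr13:80340109-80340358, reverse strand: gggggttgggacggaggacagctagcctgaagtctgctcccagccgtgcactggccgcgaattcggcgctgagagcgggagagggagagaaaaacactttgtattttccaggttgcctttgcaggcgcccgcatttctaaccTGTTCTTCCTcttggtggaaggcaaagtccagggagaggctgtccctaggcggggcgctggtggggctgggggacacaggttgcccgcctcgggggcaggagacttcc
SPRED1, chr15:38252586-38252835, forward strand: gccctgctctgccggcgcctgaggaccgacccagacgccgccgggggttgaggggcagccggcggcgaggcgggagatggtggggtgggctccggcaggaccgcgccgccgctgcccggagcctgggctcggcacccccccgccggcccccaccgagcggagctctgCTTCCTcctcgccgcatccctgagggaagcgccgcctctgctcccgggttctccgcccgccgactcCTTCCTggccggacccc
The SPRY4 window held none of these letter runs, which says nothing of binding there or elsewhere. The SPRY1 window held CCGGAAG once, 67 bases before the start, and AGGAAG once on the opposite strand. In the SPRY2 window a TGTTCT and an opposite-strand AGGAAG overlapped, and the SPRED1 window held AGGAAG at 2 places, both on the opposite strand. AGGAAG was found in 10 of the 16 starts, from 6 genes, against 28.7% of 35116 RefSeq promoters. TGTTCT was in 4 starts of 2 genes, ETV1 and SPRY2, against 12.4% of promoters. CCGGAAG was in 1 start (8.52% of promoters), and a Capicua octamer in 1 start, of ETV1 (2.19%). Starts of 1 gene can overlap and are not independent, and a match is a description of the letters only.

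Values are array intensities as deposited. Changes are differences of log2(intensity + 16) ± standard error from limma with n = 3 arrays per group, which understate the change of dim genes. Each gene was represented by its brightest probe set, and p-values are Benjamini-Hochberg adjusted over all genes tested, 12840 in VCaP and 12823 in LNCaP. "Rose" and "fell" are used for an adjusted p below 0.05.

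Of the 10 members, 7 were bright enough to be tested, the same 7 in both lines. ETV4, ETV5 and DUSP6 lay below the limit, the array median in at least 3 of a line's 12 arrays, and were left out of the main fits. ETV4 had group mean intensities of 18.7 to 21.9 in VCaP and 7.49 to 11.5 in LNCaP, and ETV5 of 14.5 to 21.7 and 17.9 to 23.6. DUSP6, the cytoplasmic ERK phosphatase, was at 31.3 to 42.0 in VCaP and 30.2 to 37.1 in LNCaP, and 1 of its 12 LNCaP arrays passed the array median. These common ERK readouts were thus dim on these arrays. With the limit lifted, so that all 19775 genes were tested, 1 of 39 changes of these 3 genes passed, a fall of DUSP6 with DHT in VCaP siControl cells (−0.24 ± 0.08, adjusted p = 0.046). Its groups overlapped, with the lowest EtOH array at 34.65 and the highest DHT array at 34.73. Of the genes above the limit, 25.4% fell in that comparison, and the share with the limit lifted is not given here. Array medians were 42.7 to 53.3.

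**Figure D1:**
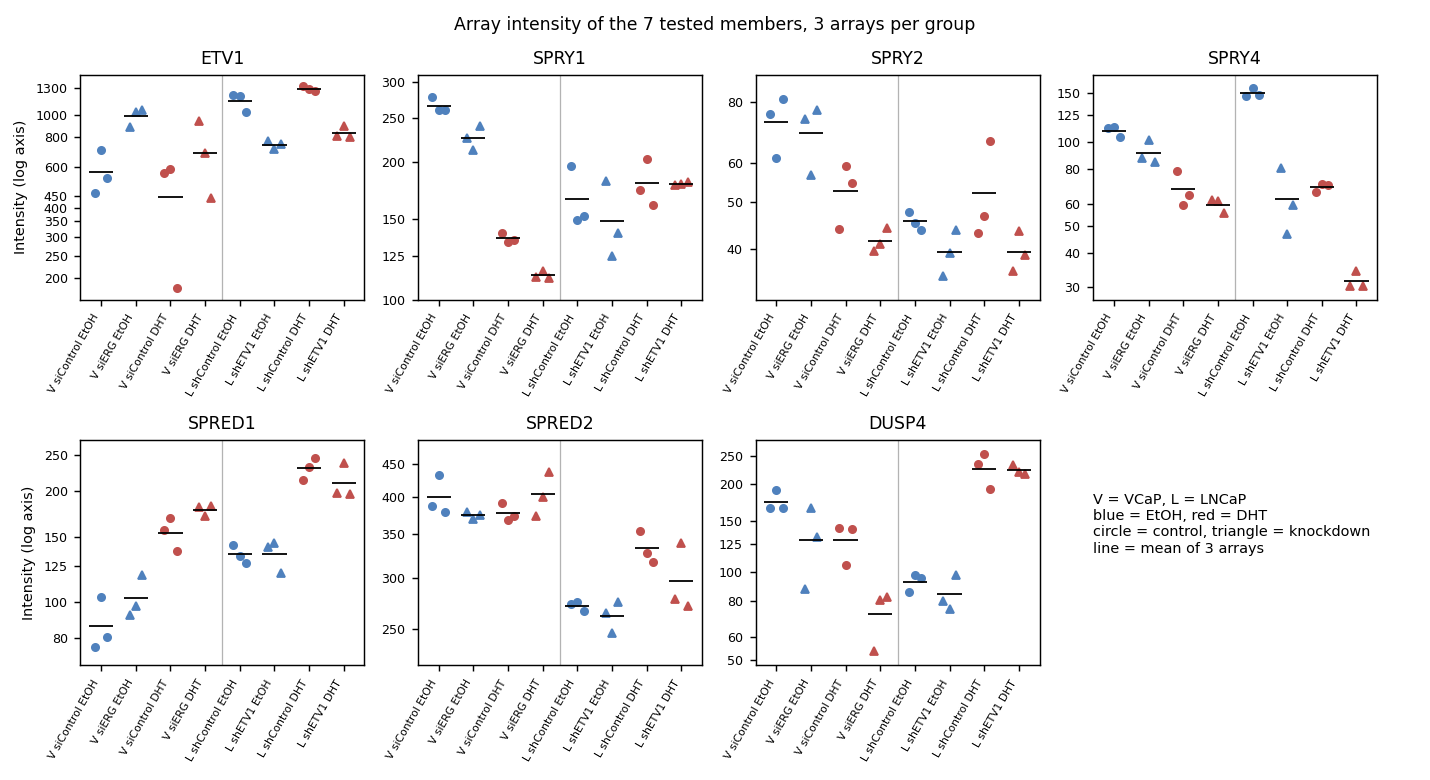
Array intensity (log axis) of the 7 tested members, each from its brightest probe set, in the 8 groups of 3 arrays, with the group mean as a line. Within LNCaP, SPRY4 is lowest with shETV1 and DHT (mean 31.7). SPRY1 steps down with DHT in VCaP siControl (267 to 136). With DHT the DUSP4 mean lies lower in VCaP and higher in LNCaP.

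The knockdowns were first checked on their targets. ERG in VCaP was at a mean of 1031 ± 82.3 (SD, n = 3) with siControl and EtOH and 576 ± 13.5 with siERG, and at 1188 ± 24.9 and 548 ± 17.5 with DHT. In EtOH the fall of ERG was 0.82 ± 0.06 (adjusted p = 1.8e-05), and in DHT it was 1.09 ± 0.06 (adjusted p = 2.2e-06). ETV1, the target in LNCaP and a member here, was measured at 1215, 1201 and 1030 in shControl EtOH and at 769, 714 and 752 in shETV1 EtOH. With DHT the arrays read 1326, 1290 and 1264 in shControl and 809, 892 and 803 in shETV1. The groups did not overlap in either condition. The fall of ETV1 was 0.61 ± 0.07 in EtOH (adjusted p = 4.9e-04) and 0.62 ± 0.07 in DHT (adjusted p = 4.7e-04). About 65% of the control intensity remained in both.

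The question of the shETV1 comparison is which genes follow ETV1 in LNCaP. Beside ETV1 itself, SPRY4 was the only member whose brightest probe set fell after shETV1, in EtOH and in DHT; a dimmer DUSP4 probe set, 226034_at, fell too. SPRY4, a Sprouty inhibitor of RAS signalling, had 1 probe set annotated to it alone. On that probe set SPRY4 read 146, 156 and 148 in shControl EtOH and 80.9, 46.8 and 59.5 in shETV1 EtOH. It read 65.9, 70.8 and 70.2 in shControl DHT and 30.4, 34.5 and 30.3 in shETV1 DHT. The groups were apart in both conditions, with 41.6% of the control mean left with EtOH and 46.0% with DHT. The shETV1 DHT arrays lay below the array medians of that group (44.2 to 44.6), so the level left there is uncertain. Whether a dim probe set annotated to NEAT1 and MIR612 also reads SPRY4 was not tested. Its mean was higher in shETV1 than in shControl with EtOH (19.9 against 14.0). With DHT it was lower (15.1 against 22.4). The changes of the SPRY4 probe set were −1.11 ± 0.12 (adjusted p = 4.8e-04) and −0.83 ± 0.12 (adjusted p = 0.0031), the 8th and 22nd lowest among the 12823 genes tested. With EtOH 2 of 7 members fell and 0 rose, against 2.97% and 1.22% of all genes. With DHT 2 of 7 fell and 0 rose, against 2.5% and 2.68%. ETV1 is counted in both although it is the knockdown's target.

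The other Sprouty and Spred genes did not pass in LNCaP. SPRY1 differed by −0.15 ± 0.13 with EtOH (95% interval −0.44 to 0.14) and by 0.00 ± 0.13 with DHT. SPRY2 differed by −0.15 ± 0.11 and −0.28 ± 0.11, SPRED1 by 0.00 ± 0.09 and −0.13 ± 0.09, and SPRED2 by −0.05 ± 0.08 and −0.17 ± 0.08. The 95% intervals of these 4 genes ran from −0.53 to 0.29, so smaller changes in that range could not be seen. Only the SPRY2 interval with DHT (−0.53 to −0.04, adjusted p = 0.18) lay wholly below 0. DUSP4, the nuclear ERK phosphatase, gave −0.13 ± 0.10 and −0.01 ± 0.10 on its brightest probe set. Another DUSP4 probe set, 226034_at, fell by 0.36 ± 0.08 in EtOH (73.1, 74.2 and 70.8 against 53.6, 49.3 and 56.9; adjusted p = 0.032) and in DHT by 0.33 ± 0.08 (adjusted p = 0.036). Fitted as single probe sets, 6 of the 15 tested member probe sets fell with EtOH (3.1% of all probe sets changed either way) and 7 with DHT (4.43%). These include ETV1 probe sets, 4 of 5 of which fell with EtOH and 5 of 5 with DHT.

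Of 10 tested luminal prostate markers, 4 fell with EtOH after shETV1 and 5 with DHT, and 0 rose in either, against 2.97% and 2.5% of all genes that fell. The summed intensity of these 10 markers was 25300 to 26700 in shControl EtOH and 22070 to 22690 in shETV1 EtOH. With DHT it was 51330 to 52580 and 40750 to 43130. Of the 3 measured basal markers 0 passed the intensity limit, with sums of 33.3 to 57.1 in LNCaP. Summed intensity of 12 markers of fibroblasts, endothelium and leukocytes was 871 to 909 in shControl EtOH and 913 to 942 in shETV1 EtOH. The part of these lists in the SPRY4 change was not tested.

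**Figure D2:**
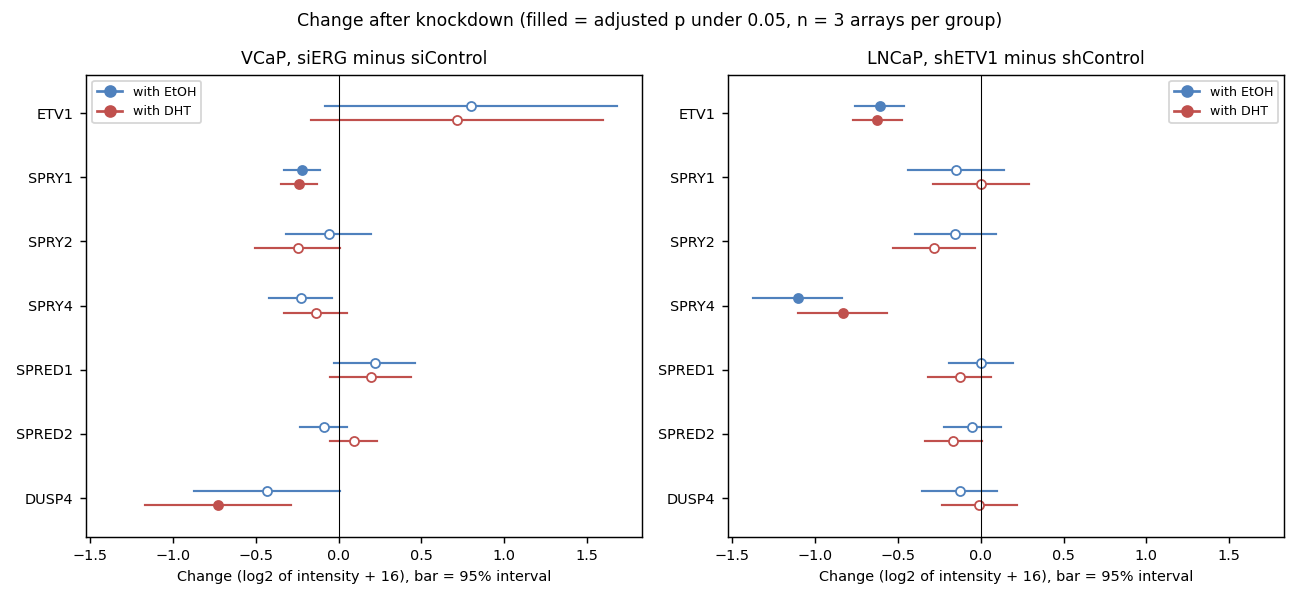
Change after knockdown (log2 of intensity + 16, bar 95% interval, filled points adjusted p below 0.05) of the 7 tested members in VCaP (siERG minus siControl) and LNCaP (shETV1 minus shControl), with EtOH and with DHT. SPRY4 and ETV1 fall in LNCaP, and SPRY1 in VCaP by 0.22 and 0.24; the ETV1 bars in VCaP are wide.

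In VCaP the comparison of siERG with siControl asks which genes follow ERG. SPRY1 was the member that fell in both conditions and DUSP4 the one that fell with DHT. SPRY1 read 278, 261 and 260 in siControl EtOH and 226, 213 and 240 in siERG EtOH, and 140, 134 and 135 against 112, 116 and 112 with DHT. The groups did not overlap. Its other probe set, 230212_at, fell by 0.53 ± 0.07 with EtOH (adjusted p = 0.0017) and differed by −0.23 ± 0.07 with DHT. On the brightest probe set the falls were small, 0.22 ± 0.05 (adjusted p = 0.016) with EtOH and 0.24 ± 0.05 (adjusted p = 0.013) with DHT. SPRY1 lost its call with EtOH when siControl EtOH replicate A (adjusted p = 0.068) or siERG EtOH replicate B (adjusted p = 0.068) was left out, and with DHT when siControl DHT replicate A was (adjusted p = 0.055). SPRY1 also missed the threshold when only the 2 groups compared were fitted (adjusted p = 0.059 with EtOH and 0.054 with DHT), and with the GAPDH 3'/5' ratio of each array as a covariate (adjusted p = 0.18 with EtOH and 0.24 with DHT). That ratio, which rises as RNA breaks down, was 1.039 to 1.064 in siControl EtOH and 1.067 to 1.114 in siERG EtOH, and 1.065 to 1.080 and 1.022 to 1.037 with DHT. The ranges of siControl and siERG did not overlap in either condition, so ratio and knockdown are poorly told apart by this covariate. With it the SPRY1 changes were −0.24 with EtOH and −0.22 with DHT. The part of RNA quality in the change was not tested further.

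DUSP4 read 166, 191 and 166 in siControl EtOH and 87.7, 166 and 132 in siERG EtOH, and 142, 106 and 140 against 53.9, 80.3 and 82.3 with DHT. The groups were apart only with DHT. DUSP4 fell by 0.73 ± 0.20 with DHT (adjusted p = 0.047) and differed by −0.43 ± 0.20 with EtOH (adjusted p = 0.20). The DHT call is close to the threshold, and it was lost without any 1 array of siControl EtOH, without siERG EtOH C, without siControl DHT A or C, and without siERG DHT A or B (adjusted p = 0.063 to 0.141). It was also lost with no intensity limit (adjusted p = 0.089), with arrays centred on their median (0.0507), with only the 2 groups fitted (0.064) and with the replicate letter as a block (0.052). Adjusted for the GAPDH ratio, the change was −0.45 (adjusted p = 0.54), with the same limit of that covariate as for SPRY1. Both other DUSP4 probe sets fell in both conditions. Probe set 204014_at fell by 0.55 ± 0.09 in EtOH (153, 148 and 152 against 94.7, 86.7 and 115; adjusted p = 0.0038) and in DHT by 0.68 ± 0.09 (adjusted p = 0.0011). Probe set 226034_at fell by 0.82 ± 0.10 (adjusted p = 9.2e-04) and 0.58 ± 0.10 (adjusted p = 0.0063). In VCaP it was brighter than the representing probe set, 204015_s_at, except in siERG EtOH (group means 124 against 129). In siControl EtOH the means were 230 against 174. The 3 probe sets thus pointed downward in every one of these comparisons.

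**Figure D3:**
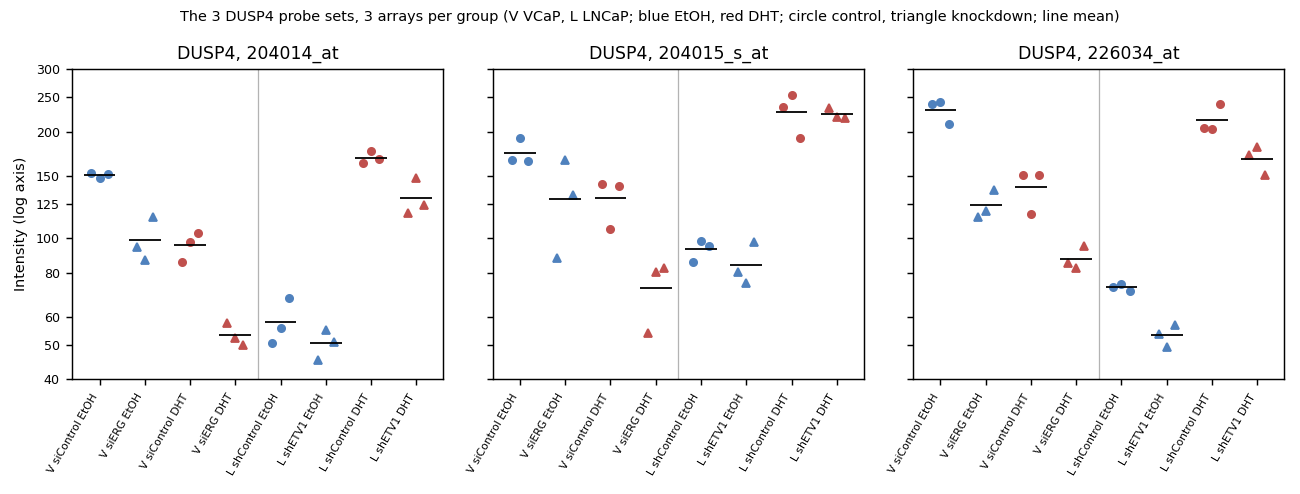
Array intensity (log axis) of the 3 DUSP4 probe sets in the 8 groups of 3 arrays, with the group mean as a line. In all 3, the DHT means lie below EtOH in VCaP and above it in LNCaP, and VCaP siERG lies below siControl on average, with 1 siERG EtOH array of 204015_s_at at the control level.

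ETV1 was the 1 PEA3 member bright enough to test in VCaP. Its brightest probe set read 460, 707 and 537 in siControl EtOH and 890, 1024 and 1046 in siERG EtOH, and 565, 588 and 181 against 937, 684 and 442 with DHT. The EtOH groups did not overlap, while siControl DHT replicate C stood far below the other 2 arrays of its group. The change was 0.80 ± 0.40 with EtOH (adjusted p = 0.24) and 0.72 ± 0.40 with DHT (adjusted p = 0.33), so neither passed. The 5 probe sets of ETV1 did not move together in VCaP. Only 206501_x_at rose, from 120, 99.4 and 120 to 181, 159 and 200 with DHT (0.60 ± 0.13, adjusted p = 0.020). Fitted singly, 0 member probe sets rose and 4 fell with EtOH (10.7% of all probe sets changed either way), and 1 rose and 3 fell with DHT (7.47%).

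**Figure D4:**
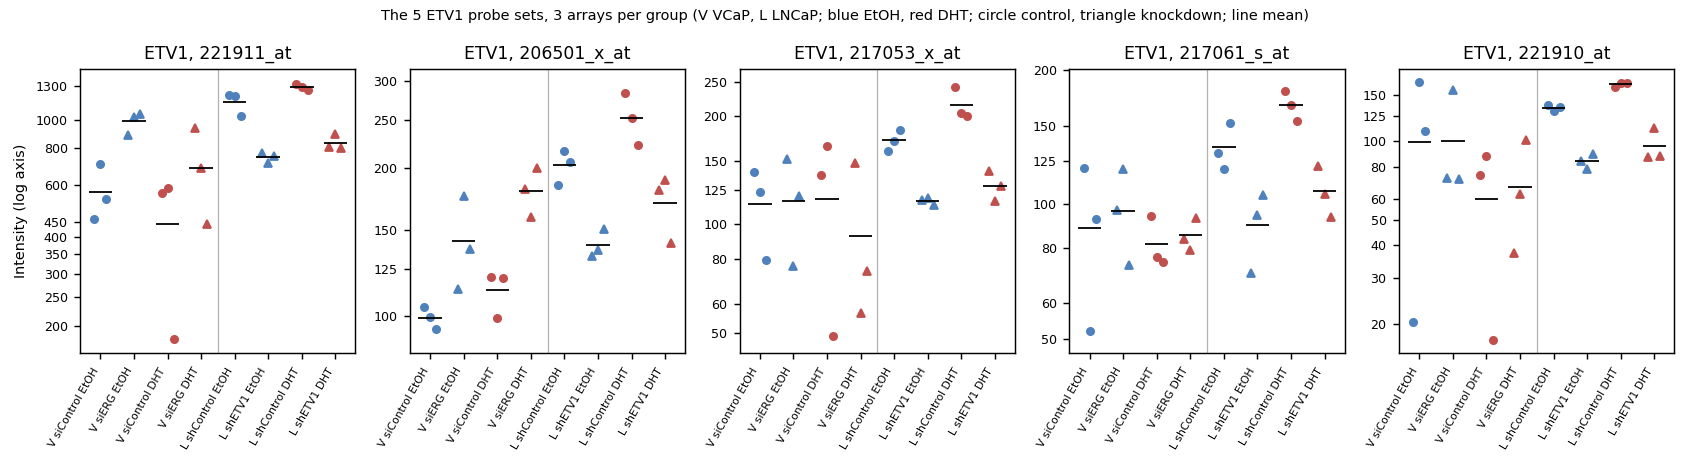
Array intensity (log axis, own scale per panel) of the 5 ETV1 probe sets in the 8 groups of 3 arrays, with the group mean as a line. In LNCaP every shETV1 group mean lies below its control; in VCaP the arrays scatter widely in 221910_at and 217053_x_at and lie closer together in 206501_x_at.

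Other members showed no call after siERG. SPRY4 read 112, 113 and 104 against 87.8, 102 and 84.9 with EtOH, a difference of −0.23 ± 0.09 (adjusted p = 0.12) whose groups were apart, and −0.14 ± 0.09 with DHT. SPRY2 differed by −0.06 ± 0.12 and −0.25 ± 0.12, SPRED1 by 0.22 ± 0.11 and 0.19 ± 0.11, and SPRED2 by −0.09 ± 0.06 and 0.09 ± 0.06. With EtOH 1 of 7 members fell and 0 rose, against 5.87% and 5.37% of all genes. With DHT 2 of 7 fell and 0 rose, against 5.18% and 3.79%. The summed level of the 12 markers of other cell types was 1010 to 1091 in siControl EtOH and 802 to 889 in siERG EtOH, and 975 to 1159 and 779 to 837 with DHT, mostly through LYZ (348 and 142 with EtOH). The 10 luminal markers summed to 34930 to 36240 and 31850 to 33360 with EtOH, and to 44070 to 46820 and 41040 to 45480 with DHT. Of them 4 fell and 1 rose with EtOH, and 1 fell and 0 rose with DHT, against the same shares of all genes. The part of these lists in the SPRY1 and DUSP4 results was not tested.

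DHT against EtOH in control cells asks which genes androgen moves. In VCaP all 3 Sprouty genes fell and SPRED1 rose. SPRY1 went from 278, 261 and 260 to 140, 134 and 135, a fall of 0.89 ± 0.05 (adjusted p = 1.9e-07). SPRY4 went from 112, 113 and 104 to 78.4, 59.5 and 64.6, a fall of 0.60 ± 0.09 (adjusted p = 2.2e-04). SPRY2 went from 75.5, 61.4 and 81.2 to 43.9, 59.2 and 54.6 (−0.37 ± 0.12, adjusted p = 0.023). In each of the 3 the DHT arrays lay below all EtOH arrays. SPRY2 missed the threshold without siControl EtOH replicate A (adjusted p = 0.069), siControl EtOH replicate C (adjusted p = 0.086) or siControl DHT replicate A (adjusted p = 0.092). It also missed it with the GAPDH ratio as a covariate (−0.38, adjusted p = 0.062). The ratio ranges of these groups did not overlap either (1.039 to 1.064 with EtOH and 1.065 to 1.080 with DHT).

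SPRED1, a Spred inhibitor that recruits neurofibromin to RAS, went from 75.3, 103 and 80.2 to 157, 169 and 137, a rise of 0.74 ± 0.11 (adjusted p = 2.9e-04). Its probe set 235074_at rose by 0.72 ± 0.12. DUSP4 differed by −0.39 ± 0.20 (adjusted p = 0.13) on its representing probe set. Probe set 226034_at, brighter in these groups (means 230 and 140 against 174 and 129), fell by 0.67 ± 0.10 (adjusted p = 3.5e-04). Probe set 204014_at fell by 0.58 ± 0.09 (adjusted p = 3.5e-04). SPRY1 probe set 230212_at fell by 1.26 ± 0.07 (157, 154 and 170 to 60.5, 50.9 and 62.2). ETV1 gave −0.49 ± 0.40 and SPRED2 −0.08 ± 0.06, without a call. In VCaP 1 of 7 members rose and 3 fell, against 19.6% and 25.4% of all genes, with a member median of −0.39 and an all-gene median of −0.03. Of 15 tested member probe sets 8 changed (41.9% of all probe sets did).

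The same 4 members, and DUSP4, passed in siERG cells. SPRY1 fell by 0.91 ± 0.05, SPRY2 by 0.56 ± 0.12, SPRY4 by 0.51 ± 0.09 and DUSP4 by 0.69 ± 0.20 (adjusted p = 0.015), and SPRED1 rose by 0.72 ± 0.11. DUSP4 missed the threshold without siERG EtOH replicate B (adjusted p = 0.059) or siERG DHT replicate A (adjusted p = 0.061). Adjusting for the GAPDH ratio, SPRY2 (adjusted p = 0.19) and DUSP4 (change −0.31, adjusted p = 0.66) missed it. The ratio ranges did not overlap here either (1.067 to 1.114 with EtOH and 1.022 to 1.037 with DHT). Here 1 of 7 rose and 4 fell, against 20.1% and 25.2% of all genes, and 9 of 15 member probe sets changed (41.9% of all). No tested member passed the test of the difference in DHT response between siERG and siControl cells, with 0 of 7 higher and 0 lower, against 0.0623% and 0.226% of all genes. The intervals of that difference ran from −0.17 to 0.14 for SPRY1 and from −0.92 to 0.32 for DUSP4.

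**Figure D5:**
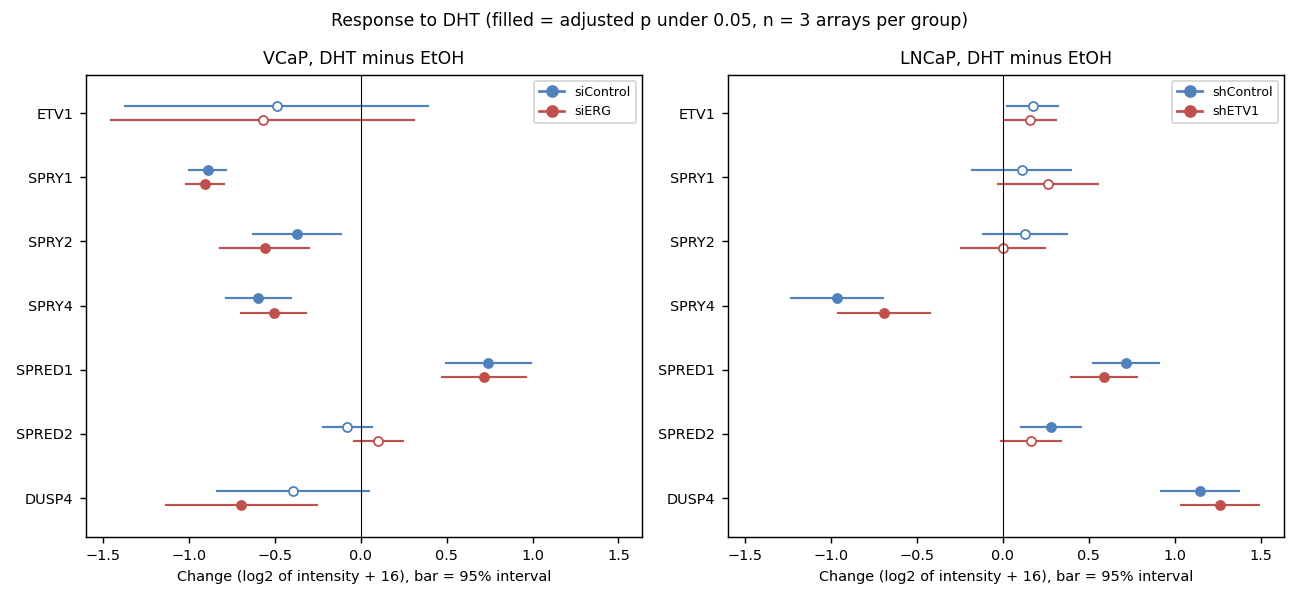
Change with DHT (log2 of intensity + 16, bar 95% interval, filled points adjusted p below 0.05) of the 7 tested members in control and knockdown cells of VCaP and LNCaP. SPRY4 falls and SPRED1 rises in both lines, SPRY1 and SPRY2 pass as lower in VCaP and do not pass in LNCaP, and DUSP4 rises in LNCaP by 1.15 and 1.26.

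In LNCaP DHT lowered SPRY4 and raised DUSP4, SPRED1 and SPRED2. SPRY4 went from 146, 156 and 148 to 65.9, 70.8 and 70.2 (−0.97 ± 0.12, adjusted p = 7.6e-05). DUSP4 went from 85.6, 98.0 and 95.3 to 234, 254 and 192 (1.15 ± 0.10, adjusted p = 5.4e-06), with the groups far apart. Its other probe sets rose by 1.32 ± 0.10 and 1.38 ± 0.08. SPRED1 went from 143, 134 and 128 to 215, 233 and 246 (0.71 ± 0.09, adjusted p = 6.1e-05). SPRED2 went from 273, 275 and 267 to 355, 328 and 317 (0.28 ± 0.08, adjusted p = 0.015). That call was lost without shControl DHT replicate A (adjusted p = 0.058) and when all its probe sets were averaged (change 0.00, adjusted p = 0.98). The other SPRED2 probe sets were dim, with shControl means of 4.42 to 16.7 against 272 and 333. The average thus rests partly on values near the floor.

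SPRY1 and SPRY2 were not called in LNCaP, at 0.11 ± 0.13 and 0.13 ± 0.11, although SPRY1 probe set 230212_at rose by 0.64 ± 0.17 (adjusted p = 0.011), from 65.4, 38.9 and 56.8 to 105, 72.6 and 98.0. ETV1 differed by 0.17 ± 0.07 (adjusted p = 0.062). In LNCaP 3 of 7 members rose and 1 fell, against 18.6% and 22.3% of all genes, and 10 of 15 member probe sets changed (37.9% of all). In shETV1 cells SPRY4 fell by 0.69 ± 0.12, SPRED1 rose by 0.59 ± 0.09 and DUSP4 by 1.26 ± 0.10, while SPRED2 differed by 0.16 ± 0.08 (adjusted p = 0.13). These were 2 of 7 up and 1 down, against 18.8% and 19% of all genes, with 7 of 15 probe sets changed (35.1% of all). In the test of the DHT response between shETV1 and shControl cells 0 of 7 members passed in either direction, against 0.078% and 0.0234% of all genes. For SPRY4 the difference was 0.27 ± 0.17 (95% interval −0.11 to 0.65). DHT also moved the marker sums, the luminal list from 25300 to 26700 to 51330 to 52580, and the other cell types from 871 to 909 to 660 to 717.

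The lines were compared through their changes, LNCaP minus VCaP, over the 12305 genes tested in both. Line, reagent and target differ together and cannot be told apart. The change of SPRY4 after shETV1 differed from that after siERG, which did not pass, by −0.88 ± 0.15 in EtOH (adjusted p = 0.0010) and by −0.69 ± 0.15 in DHT (adjusted p = 0.0072). ETV1, the target in LNCaP only, also differed with EtOH (−1.41 ± 0.42, adjusted p = 0.042). That call was lost, at adjusted p of 0.0503 to 0.101, without any 1 array of siERG EtOH, shControl EtOH or shETV1 EtOH, and without siControl EtOH A or C, siERG DHT B, shControl DHT A or B, or shETV1 DHT A or C. It was also lost with no intensity limit (adjusted p = 0.076), a pseudocount of 1 (0.051), the robust variance (0.060) and the GAPDH covariate (0.49). With EtOH 0 of 7 were higher and 2 lower, against 4.16% and 5.4% of all genes, and with DHT 0 and 1, against 4.28% and 3.22%.

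The DHT response of control cells was higher in LNCaP for 4 of 7 members and lower for 0, against 17.6% and 14.3% of all genes. DUSP4 differed by 1.54 ± 0.23 (adjusted p = 3.8e-05) and SPRY1 by 1.0 ± 0.15 (adjusted p = 2.3e-05). SPRY2 differed by 0.50 ± 0.17 (adjusted p = 0.027) and SPRED2 by 0.36 ± 0.10 (adjusted p = 0.011). SPRED1 differed by −0.03 ± 0.15 (95% interval −0.33 to 0.28). SPRY4 differed by −0.37 ± 0.15 (adjusted p = 0.074). SPRY2 missed the threshold, at adjusted p of 0.0544 to 0.0821, without VCaP siControl EtOH A or C, VCaP siControl DHT A, LNCaP shControl EtOH C or LNCaP shControl DHT C, and with the robust variance (adjusted p = 0.055). The SPRED2 difference was 0.09 and lost its call when all probe sets of the gene were averaged (adjusted p = 0.73), the dim ones included.

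Other genes of the pathway were read from lists. Of 25 RAS to ERK core genes, 19 had a probe set of their own and 18 were tested. With DHT in VCaP siControl 2 rose and 8 fell, against 19.6% and 25.4% of all genes (median change −0.03, as over all genes), with RASAL2, a RAS GTPase-activating protein, down by 1.48 ± 0.06, the kinase MAP2K1 down by 0.35 ± 0.05 and the adaptor SHC1 up by 0.47 ± 0.07. In LNCaP shControl 3 rose and 5 fell, against 18.6% and 22.3% (median 0.05), with RASAL2 down by 0.80 ± 0.08 and the kinase RPS6KA3 up by 0.46 ± 0.04. After siERG RASAL2 fell by 0.43 ± 0.06 with EtOH and by 0.45 ± 0.06 with DHT, the only core gene that did (5.87% and 5.18% of all genes fell). After shETV1 0 of 18 changed with EtOH, and RPS6KA1 fell by 0.16 ± 0.04 with DHT, the 1 that changed (1.22% of all genes rose and 2.97% fell with EtOH, and 2.68% and 2.5% with DHT).

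Of the receptor tyrosine kinases, 3 rose and 4 fell with DHT of 10 tested in VCaP (median change −0.04; 19.6% and 25.4% of all genes), and 3 rose and 3 fell of 9 in LNCaP (median 0.02; 18.6% and 22.3% of all genes). EGFR rose by 0.87 ± 0.08 in VCaP and 0.70 ± 0.05 in LNCaP, MET fell by 1.28 ± 0.10 in VCaP, ERBB2 fell by 0.64 ± 0.11 and 0.60 ± 0.04, and IGF1R rose by 1.48 ± 0.06 in LNCaP. After shETV1 2 of 9 fell with EtOH and 1 with DHT, and 0 rose (2.97% and 2.5% of all genes fell). After siERG 1 of 10 fell in each condition and 0 rose (5.87% and 5.18% of all genes fell). FGFR3 fell after shETV1, by 0.62 ± 0.11 with EtOH and 0.58 ± 0.11 with DHT, and INSR after siERG, by 0.42 ± 0.10 and 0.36 ± 0.10.

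Of other ERK-induced genes, 10 were tested in VCaP and 9 in LNCaP. With DHT in control cells 3 rose and 2 fell in VCaP (median change 0.11), and 3 rose and 1 fell in LNCaP (median 0.07), against shares of all genes of 19.6% and 25.4% in VCaP and 18.6% and 22.3% in LNCaP. After shETV1 0 of 9 passed in either condition. Of all genes 1.22% rose and 2.97% fell with EtOH, and 2.68% and 2.5% with DHT. A list of 9 is too short to tell 0 from such shares. After siERG with EtOH EGR1 rose by 0.36 ± 0.06, and MYC fell by 0.94 ± 0.11 and HBEGF, a receptor ligand, by 0.46 ± 0.05. These were 1 of 10 up and 2 down, against 5.37% and 5.87% of all genes. After siERG in the presence of DHT 1 of 10 rose and 1 fell, against 3.79% and 5.18%. With DHT against EtOH in VCaP MYC fell by 2.30 ± 0.11, and EPHA4, an ephrin receptor, by 0.98 ± 0.05, while PHLDA1 rose by 0.51 ± 0.11. Of 9 tested relatives of the members, 4 rose and 1 fell with DHT in VCaP (median 0.24) and 2 rose and 3 fell in LNCaP (median −0.01), to be read against the same shares of all genes. DUSP2, DUSP1 and DUSP10 rose with DHT in VCaP by 0.82 ± 0.11, 0.72 ± 0.06 and 0.56 ± 0.06. Of the 5 genes that control PEA3 factors, ATXN1, a partner of Capicua, fell with DHT in VCaP by 0.93 ± 0.08, after siERG by 0.32 ± 0.08 and 0.49 ± 0.08, and after shETV1 with DHT by 0.39 ± 0.06. In each of these ATXN1 was the only 1 of the 5 that fell, against 25.4%, 5.87%, 5.18% and 2.5% of all genes. CIC and COP1 did not pass in any of these comparisons.

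The genes whose 4 group means lay closest to those of a member, each centred on its mean in the line, were named for members spanning at least 1 log2 unit. For SPRY4 in LNCaP they were ZMAT1, TSPAN7 and GBP3, with root mean square differences of 0.08, 0.09 and 0.10. For SPRY1 in VCaP they were WDR7, SOX13 and MIA3 (0.024, 0.024 and 0.031). For DUSP4 they were MMP1, GULP1 and FPR3 in VCaP (0.019, 0.044 and 0.049) and ORC5, SLC43A1 and CROT in LNCaP (0.022, 0.030 and 0.032). For ETV1 in VCaP they were HS3ST1, GCG and RELN (0.070, 0.084 and 0.110). This likeness is over 4 means and describes the pattern only.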

How the data were processed

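The values are linear probe set intensities that the authors deposited in one table for all 24 arrays; no label or header says how they were background-corrected or scaled (not given in the sources used here), and the lines may have been processed apart, so levels were compared within a line only. Cells, groups and replicates follow the labels. The deposited intensities were used as log2(intensity + 16). Of 54675 probe sets, 41091 named 1 gene, for 19775 genes, with the brightest probe set (mean log2 over all arrays) standing for a gene. Genes that exceeded the array median on 3 or more of a line's 12 arrays were tested with limma 3.58.1 in R 4.3.3, in one fit per line with 4 groups; differences between lines came from a fit of all 24 arrays. The fit was tested on simulated data. Benjamini-Hochberg adjustment ran over all genes tested, and tests are two-sided.

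All 10 members were described in every comparison; listed genes were named by size of change, up to 3 risen and 3 fallen per list and comparison. The members and lists were chosen with earlier results of these data known. Some list genes had no usable probe set and were not analysed here. One further probe set, annotated to NEAT1 and MIR612, carries a transcript accession of SPRY4 and was not counted as a member. With DHT its mean went from 32.25 to 55.81 in VCaP siControl and from 14.01 to 22.37 in LNCaP shControl, where the SPRY4 probe set fell. In LNCaP shETV1 it was 19.91 with EtOH, above shControl, and 15.11 with DHT, below shControl. In VCaP siERG it was 35.89 with EtOH and 44.98 with DHT. Whether it reads SPRY4 was not tested, so the SPRY4 results rest on 1 probe set. Replicate letters did not pair the samples: the median correlation of same-letter deviations was −0.007 in VCaP and −0.023 in LNCaP. Alternatives were averaged or single probe sets, other filters, pseudocounts and scalings, a robust variance, 2-group fits, a replicate block, an RNA quality covariate and leaving out each array. Nothing says how the biological replicates were kept apart, so p-values measure the spread between these samples. RefSeq promoters (GRCh38.p14) were searched for fixed motifs in 250 bases.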

Additional observations from a re-analysis of the deposited data

Results flagged for a closer look

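The effects below differed between the lines in a direct test (LNCaP minus VCaP, limma, adjusted over 12305 genes). SPRY4 was read from 1 probe set. The knockdown effect on it was lower in LNCaP at −0.88 ± 0.15 in EtOH (adjusted p = 0.0010) and −0.69 ± 0.15 in DHT (adjusted p = 0.0072). That on ETV1, the target in LNCaP only, differed by −1.41 ± 0.42 with EtOH (adjusted p = 0.042), a call kept in 16 of 36 other settings and left-out arrays. The DHT response of control cells differed for DUSP4 by 1.54 ± 0.23 (adjusted p = 3.8e-05), for SPRY1 by 1.0 ± 0.15 (adjusted p = 2.3e-05), for SPRY2 by 0.50 ± 0.17 (adjusted p = 0.027) and for SPRED2 by 0.36 ± 0.10 (adjusted p = 0.011). The SPRY2 call was kept in 29 of 35 other settings and left-out arrays. The SPRED2 difference was 0.09 with its probe sets averaged, the dim ones included (adjusted p = 0.73). Line, RNA interference reagent and target change together and cannot be told apart.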

How the results depend on the processing

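The 91 member results were compared under 13 settings and 24 left-out arrays. Of 2466 values, 2356 kept their side of the threshold, 57 lost and 53 gained a call, and 0 calls reversed. Values without a call could change sign. The LNCaP difference in DHT response of DUSP4, 0.12 in the main fit, ranged from −0.19 to 0.21. The count of changed members moved by more than 1.5 times as follows; the cause was not tested. After siERG with EtOH (1 in the main analysis) it was 2 with averaged probe sets, without _x_at and _s_at probe sets and with single probe sets, and 0 with the GAPDH covariate; left-out arrays gave 0 to 1. After siERG with DHT (2) it was 1 without a filter, with median centring, with a replicate block and with the GAPDH covariate. With that covariate the 1 was a rise of SPRED1 (0.58, adjusted p = 0.021), which had no call in the main fit. With only the 2 groups fitted the count was 0, and left-out arrays gave 0 to 2. For DHT in siERG cells (5) the GAPDH covariate gave 3, and for DHT in shETV1 cells (3) averaged probe sets gave 5. For the line difference of the knockdown with EtOH (2) it was 1 without a filter, with pseudocount 1, with the robust variance and with the GAPDH covariate; left-out arrays gave 1 to 2. With DHT (1) it was 3 with averaged probe sets, 0 without _x_at and _s_at probe sets, and 2 with single probe sets, the 60th percentile filter, pseudocount 64, the robust variance and the replicate block; left-out arrays gave 1 to 3. In the paired fit with replicate letters as a block no other count moved by that much. The letters share only a name, and same-letter correlations ranged from −0.218 to 0.125. ETV1 after siERG with EtOH passed only when its 2 groups were fitted alone (adjusted p = 0.030). Genes near the array median, such as SPRY2 and SPRY4, are limited by signal over background, and ETV4, ETV5 and DUSP6 were tested only without the filter.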
